A study of Mus musculus with 2 samples.

Results

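The cartilage cells described here are single femur cells sorted for a Ctsk-Cre reporter and chosen by their own RNA. A well belonged to them when the summed level of Ucma, Matn3, Col9a1 and Lect1 reached at least 4000 CPM, which are counts scaled to a total of 1000000 per well. Wells were first kept if they had at least 500 detected genes and at most 20% of counts from mitochondrial genes. Of 653 kept wells, 180 were members: 79 of 318 in animal 1 (24.8%, exact Clopper-Pearson 95% interval 20.2% to 29.97%) and 101 of 335 in animal 2 (30.1%, 25.3% to 35.4%). These intervals cover counting error only.

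Both animals were C57/B6 mice of 1 litter, at postnatal day 6, with the genotype CTSK-cre+ mTMG, and there was no second genotype, treatment or age. In such mice Cre is made under the promoter of cathepsin K (Ctsk), a collagen-cutting protease best known from osteoclasts, and the sort for membrane GFP collects cells with present or past activity of that promoter and their descendants. The reporter therefore does not show that a cell makes Ctsk at the time of the sort. Each animal filled its own plate (47 for animal 1 and 48 for animal 2), so that animal and plate cannot be told apart.

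Member wells were as deep as the others. Their median was 102493 counts and 2191 genes in animal 1 and 124891 counts and 2222 genes in animal 2, against 99984 counts and 2178 genes and 114940 counts and 2138 genes in the other kept wells. Mitochondrial genes gave a median of 3.32% and 2.97% of member counts and 3.53% and 3.37% of the others. The share of members in the 8 plate quadrants ran from 15.1% to 35.4%. The 95 well barcodes occurred in both animals, since they code plate positions. No doublet caller was run, and the 5 wells left out for mitochondrial counts held 0 wells that met the 4000 CPM rule.

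Cartilage is made by chondrocytes, which surround themselves with type II, IX and XI collagen fibrils and with aggrecan, a heavily sulfated proteoglycan held in place by link protein. Under the control of SOX9, SOX5 and SOX6, chondrocytes of a long bone either build the growth plate, where they pass through resting, proliferating, prehypertrophic and hypertrophic zones, or form the articular cartilage of the joint, whose surface cells make the lubricant lubricin (Prg4). The 4 genes of the rule all belong to this matrix. Ucma is a small secreted cartilage protein rich in gamma-carboxyglutamate, Matn3 (matrilin 3) is an adaptor between matrix fibrils, Col9a1 is a chain of type IX collagen, and Lect1 (chondromodulin, now Cnmd) is a membrane glycoprotein that inhibits vessel growth.

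In GENCODE M21 (GRCm38, which is mm10) Ucma lies on chromosome 2 from 4976122 to 4985748 and Matn3 on chromosome 12 from 8947929 to 8972028, both on the plus strand. Col9a1 lies on chromosome 1 from 24177610 to 24252684 on the plus strand, and Lect1 on chromosome 14 from 79637690 to 79662170 on the minus strand.

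The following values chose the members and are a description. The summed level ran from 4102 to 26861 CPM in the members of animal 1, with a median of 10552, and from 4041 to 34776 CPM in those of animal 2, with a median of 9508. In the other kept wells the medians were 25.5 and 25.4 CPM. The 5 wells just inside the threshold stood at 4041, 4050, 4102, 4176 and 4181 CPM, and the 5 just outside it at 3983, 3859, 3801, 3758 and 3734 CPM. No gap marked the threshold.

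**Figure D1:**
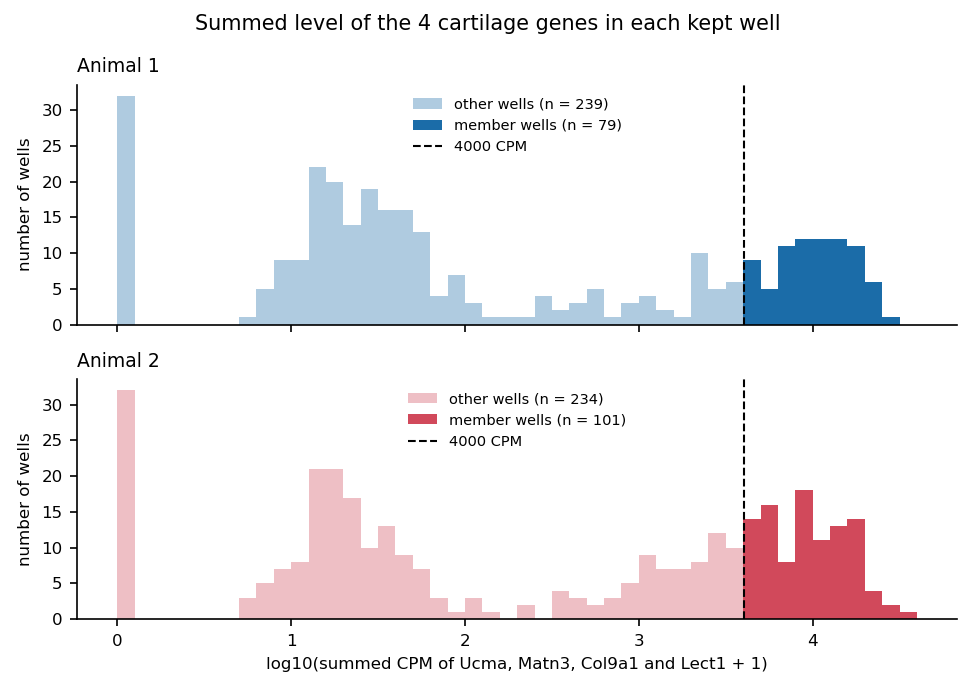
Number of kept wells (vertical axis) by the log10 of the summed CPM of Ucma, Matn3, Col9a1 and Lect1 plus 1 (horizontal axis), for animal 1 (top) and animal 2 (bottom). Dark bars are member wells, pale bars the other kept wells, and the dashed line marks 4000 CPM. The wells fell into a low mode, which held most of the 187 and 157 wells under 100 CPM, and a high mode, and the threshold crossed the lower flank of the high mode.

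Between the modes, 24 wells of animal 1 and 23 of animal 2 lay at 100 to 1000 CPM, and 28 and 54 wells at 1000 to 4000 CPM (these limits were chosen after the values were seen). The wells at 1000 to 4000 CPM were counted among the others, yet they carried Col2a1, the gene of type II collagen, at 8265 and 6918 CPM in pooled counts. Members at 4000 to 10000 CPM carried it at 13958 and 12599 CPM, and members at 10000 CPM and over at 15324 and 12935 CPM. Kept wells under 100 CPM had 167 and 134 CPM. The median well had 6941 and 5001 CPM of Col2a1 at 1000 to 4000 CPM of the rule genes, and 12770 and 11274 CPM at 4000 to 10000 CPM. Col2a1 was thus already high below the threshold and higher above it. Groups this wide cannot show whether it rose in a step there. The contrast between members and other wells sets the upper part of a range against a mixture that includes its lower part.

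**Figure D2:**
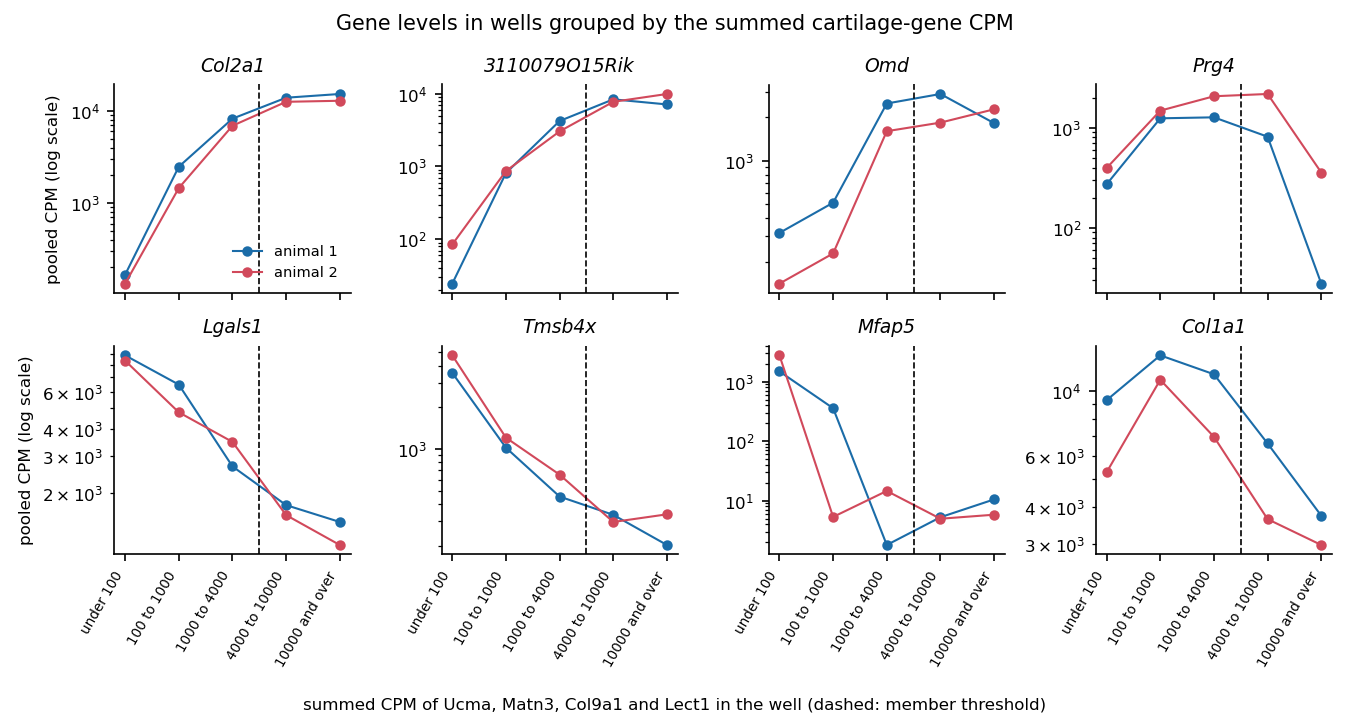
Pooled CPM (vertical axes, log scale) of 8 genes in kept wells grouped by the summed CPM of the 4 rule genes (horizontal axis), 1 line per animal; the dashed line marks the 4000 CPM threshold. Col2a1 and 3110079O15Rik were higher in each step up to 4000 CPM, Lgals1 was lower in every step in both animals, and Prg4 was lowest in animal 1, at 27.8 CPM, in the wells of 10000 CPM and over.

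Most members held all 4 genes. In 55 of 79 wells of animal 1 and 58 of 101 of animal 2, each of the 4 reached 100 CPM, and 1 well, in animal 2, reached it with 1 gene alone. Ucma was the largest of the 4 in 37 and 48 wells, Lect1 in 23 and 39, Col9a1 in 18 and 14, and Matn3 in 1 and 0.

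Ucma had a median of 3327 CPM in animal 1 and 3316 CPM in animal 2, with a range over the wells of 0 to 14178 and 0 to 17791 CPM. Lect1 had medians of 3269 and 2951 CPM, with a lowest well of 13.3 and 722 CPM and a highest of 10952 and 9086 CPM. Col9a1 had medians of 2629 and 2193 CPM and reached 6558 and 11726 CPM. Matn3 had medians of 736 and 349 CPM and reached 4141 and 3554 CPM, with no count in the lowest wells. Within the members the rank correlations between the 4 genes were low to moderate. The rule chose the wells by the sum of these genes, which by itself can lower such correlations. They therefore do not show how closely the genes go together. The rank correlation of Ucma with Lect1 was 0.39 and 0.21, and that of Ucma with Matn3 0.12 and 0.47 (79 and 101 wells; wells of an animal share a plate, and CPM of 1 well share a total).

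The sequence before the start of these genes is shown because SOX proteins, which drive cartilage genes, bind the letters ACAAAG or ACAATG. RefSeq windows (GRCm38.p6) of 250 bases before each start were searched on both strands, and 5 windows covered the 4 genes, since Col9a1 has 2 starts. Of these, 0 held either hexamer. At least 1 of them stood in 25.2% of all 32851 windows, and in 17.3% of the windows of genes at 50 CPM or more. After this result was seen, 3 further letter groups were searched: GGGCGG (a GC box), CCAAT and TATAAA. The windows with a match are printed 5′ to 3′ on the gene's own strand, with the match in capitals. Matn3 has 3 copies of GGGCGG, each sharing its last base with the first of the next, and no 2 different groups overlapped in the windows shown.
Ucma, plus strand, chr2:4975872-4976121: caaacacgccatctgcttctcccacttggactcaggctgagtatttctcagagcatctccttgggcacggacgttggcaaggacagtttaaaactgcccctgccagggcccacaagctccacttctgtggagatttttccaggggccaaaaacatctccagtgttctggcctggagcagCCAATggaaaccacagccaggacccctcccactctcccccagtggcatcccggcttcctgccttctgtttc
Matn3, plus strand, chr12:8947679-8947928: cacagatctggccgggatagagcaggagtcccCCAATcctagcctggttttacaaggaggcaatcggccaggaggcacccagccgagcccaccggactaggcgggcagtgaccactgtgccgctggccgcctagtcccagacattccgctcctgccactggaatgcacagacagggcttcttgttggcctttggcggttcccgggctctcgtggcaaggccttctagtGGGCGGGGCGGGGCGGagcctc
Col9a1, second start, plus strand, chr1:24194953-24195202: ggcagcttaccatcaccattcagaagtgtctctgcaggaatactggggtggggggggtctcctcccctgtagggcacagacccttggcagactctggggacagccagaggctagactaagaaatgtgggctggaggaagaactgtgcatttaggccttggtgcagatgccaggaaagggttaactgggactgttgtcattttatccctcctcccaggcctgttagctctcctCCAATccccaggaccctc

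CCAAT stood in 3 of the 5 windows and in 33.8% of all windows. GGGCGG stood in 1 of 5 and in 32.7% of all, and TATAAA in 0 of 5 and 12.4% of all. Among the genes at least 2-fold higher in members (defined below), 86 of 123 had a window, and 15.8% of their 114 windows held a SOX hexamer, 54.4% GGGCGG, 41.2% CCAAT and 5.26% TATAAA. In windows of genes at 50 CPM or more these shares were 60% for GGGCGG, 35.1% for CCAAT and 6.83% for TATAAA. Matches in so short a window are a description of letters and not of binding.

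The members were then compared with all other kept wells within each animal. Counts were summed per animal and class, and 14497 genes outside the 4 of the rule were tested with edgeR's quasi-likelihood test, with the animal as a block. This left 1 residual degree of freedom. No gene passed: 0 were higher and 0 lower at a Benjamini-Hochberg adjusted p below 0.05 (0% called in each direction), and 2297 genes had an unadjusted p below 0.05. The smallest adjusted p was 0.0526. By the DESeq2 Wald test on the same sums, 436 genes were higher (3.01%) and 835 lower (5.76%), so that the number called depends on the test. In simulated data of this size edgeR found 30 of 100 genes changed 4-fold and 59 of 100 changed 16-fold, and called 2 unchanged genes. The simulation had no difference between animals beyond depth, and a spread set by the level of the gene alone. The real data need not meet these settings, so these counts do not give the power of the test here.

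Genes are therefore described by their level in both animals, with the size of the difference. A gene counted as 2-fold higher or lower if it differed at least 2-fold in the same direction in both animals and had at least 50 CPM in the higher class of each, a rule set after the test had named no gene. Of 2625 genes at 50 CPM, 123 were higher (4.69%) and 249 lower (9.49%). Log2 differences given below are members minus other wells from the edgeR fit, with ± the standard error of the fit, and their median over all genes was -0.11. Since the wells were chosen for 4 cartilage genes, the level of other cartilage genes describes the choice and supports nothing.

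The matrix of hyaline cartilage made up the most abundant difference. Of 20 further cartilage matrix genes, 19 reached 50 CPM, 16 were 2-fold higher in members and 0 lower, against 4.69% and 9.49% of all genes. With DESeq2, 17 were higher and 0 lower. Their median log2 difference was 2.66. Pooled over the wells of an animal, these 20 genes gave 40476 and 36952 CPM in members against 5693 and 6991 CPM in other wells.

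Among the fibril collagens, Col2a1 stood at 14715 and 12752 CPM in members and 1261 and 1811 CPM in others. Every member well had over 100 CPM of it, from 763 to 35723 CPM in animal 1 and from 417 to 34659 CPM in animal 2. Col9a3 and Col9a2, the partner chains of Col9a1, were at 1083 and 825 CPM against 74.3 and 49.7 CPM, and at 663 and 372 CPM against 37.2 and 33.0 CPM. Col11a1, a chain of the type XI collagen that seeds the fibrils, had 3311 and 2476 CPM against 1049 and 895 CPM, a log2 difference of 1.68 ± 0.07 (adjusted p = 0.0905, edgeR quasi-likelihood).

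Of the proteoglycans and their partners, Hapln1 (link protein) stood at 1683 and 1393 CPM against 157 and 283 CPM. Acan (aggrecan) was much lower in level, at 391 and 229 CPM against 93.4 and 87.0 CPM, and reached 100 CPM in 69.6% and 44.6% of member wells. Levels of different genes are not compared per length, and read counts from this protocol may favour some transcripts. More abundant were 3110079O15Rik (Snorc, a chondrocyte membrane proteoglycan), at 7650 and 8692 CPM against 551 and 833 CPM, and Mia, a secreted cartilage protein, at 3418 and 3500 CPM against 280 and 421 CPM. The 3 list genes at 50 CPM that were not 2-fold higher in both animals were Cilp2 (57.0 and 32.2 CPM in members), Prelp and Fmod.

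Matn1 and Epyc were carried by few wells. Matn1, a matrilin of mature cartilage, was pooled at 152 and 73.7 CPM in members and 0.272 and 0.0699 CPM in others, but 6 of 79 and 4 of 101 member wells had any count. Epyc (epiphycan) gave a count in 12 and 14 member wells, the highest at 2282 and 3653 CPM.

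The transcription factors of chondrocytes followed at low levels. Of 14, 7 reached 50 CPM, 2 were 2-fold higher and 0 lower, against 4.69% and 9.49% of all genes. Sox9 had 377 and 349 CPM in members and 84.9 and 106 CPM in others (log2 2.05 ± 0.17), and reached 100 CPM in 62.0% and 59.4% of member wells against 19.2% and 20.1% of others. The second was Sox5, and Sox6 stood at 49.1 and 46.0 CPM against 13.1 and 12.8 CPM. Foxa3, a forkhead factor of later chondrocyte stages, had 33.4 and 40.4 CPM against 3.65 and 5.94 CPM. Of 20 sulfation and glycosaminoglycan genes, which build and sulfate the chains of proteoglycans, 11 reached 50 CPM and 4 were 2-fold higher, with 0 lower. DESeq2 called 4 higher and 1 lower. The 4 were Papss2, which makes the sulfate donor (270 and 197 CPM against 40.8 and 43.0 CPM), the sulfate transporter Slc26a2 (105 and 82.1 against 23.5 and 21.5 CPM), the chondroitin sulfotransferase Chst11 and the chain-starting enzyme Xylt1.

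**Figure D3:**
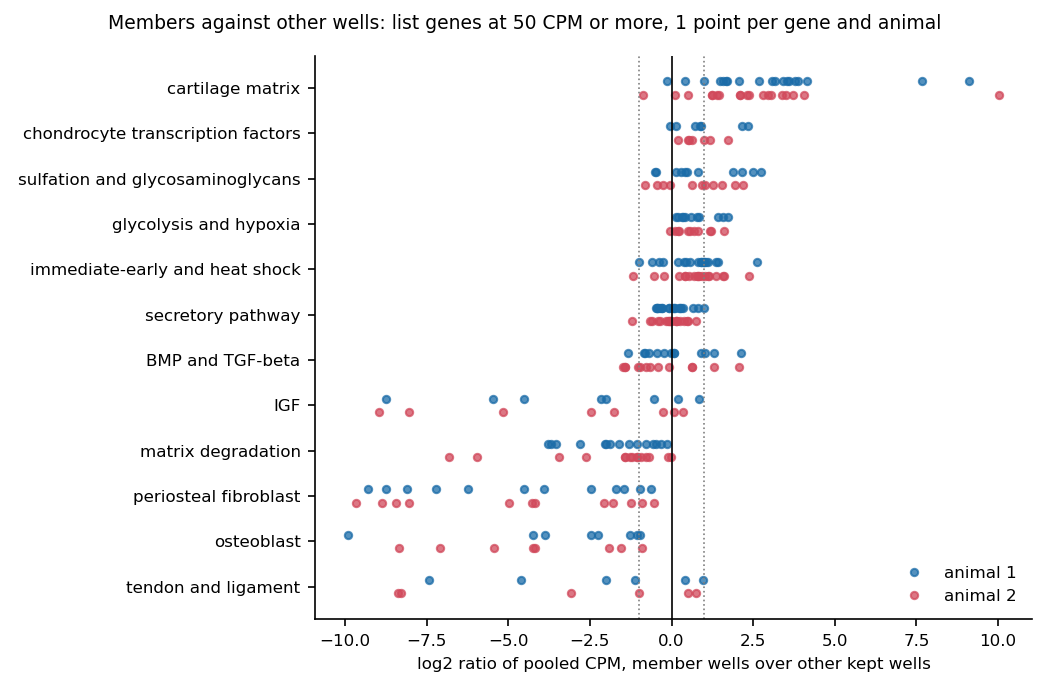
Log2 ratio of pooled CPM in members over other kept wells (horizontal axis) for each list gene with at least 50 CPM in 1 of the classes in each animal, by gene list (vertical axis), 1 point per gene and animal. Dotted lines mark 2-fold, and a class with a count of 0 was set to 3 counts. Cartilage matrix genes lay mostly to the right, and periosteal fibroblast, osteoblast and matrix degradation genes to the left of 0.

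By the rule for named genes, the 12 largest higher differences were Ninj2, Col9a3, Kctd4, Cmtm5, Col9a2, Pantr1, 3110079O15Rik, Pcp4, Ncmap, Mia, Gramd2 and M1ap. Most of them were at low levels. Ninj2, a membrane adhesion protein, stood at 64.5 and 80.2 CPM against 2.95 and 1.89 CPM, and Kctd4 at 96.5 and 66.1 CPM against 7.38 and 4.05 CPM. The size of the difference varied between the animals for some: Pcp4 was 35.7-fold higher in animal 1 and 4.11-fold in animal 2.

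The 12 largest lower differences were Dpt, Efhd1, Nnmt, Qpct, Ly6a, Ly6c1, Mgst1, Igfbp6, Krtdap, Fbln2, Lamb1 and Mfap5. Many of these mark connective tissue fibroblasts. Dpt (dermatopontin) had 0.306 and 0.22 CPM in members and 191 and 179 CPM in others, and Mfap5, a microfibril protein, 8.16 and 5.35 CPM against 1222 and 1872 CPM. Ly6a (Sca-1), a surface protein of many progenitors, had 1.84 and 1.76 CPM against 504 and 813 CPM.

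The periosteal fibroblast list of 13 genes had 12 at 50 CPM, of which 10 were 2-fold lower and 0 higher, and its median log2 difference was -4.28. Ptn (pleiotrophin) had 39.1 and 41.5 CPM in members against 900 and 800 CPM, and Postn (periostin) 106 and 54.0 CPM against 1580 and 974 CPM. Type I collagen was still abundant in the members. Col1a1 stood at 5017 and 3339 CPM, against 9873 and 6204 CPM in others, a log2 difference of -0.82 ± 0.04 (adjusted p = 0.0953, edgeR quasi-likelihood), and 63 member wells in each animal had at least 1000 CPM. The fibroblast genes Mfap5, Cd34, Ly6a, Pi16, Dpt and Igfbp6 together summed to at least 1000 CPM in 0 and 1 member wells.

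Osteoblast genes were lower: 7 of 8 at 50 CPM were 2-fold lower and 0 higher, against 9.49% and 4.69% of all genes. Car3, a carbonic anhydrase, had 0.102 and 0.293 CPM in members against 98.7 and 95.8 CPM, and Spp1 (osteopontin) 511 and 274 CPM against 1242 and 1030 CPM. Of 6 tendon and ligament genes at 50 CPM, 4 were 2-fold lower and 0 higher. Tnmd, the tendon marker tenomodulin and a relative of Lect1, had 501 and 166 CPM against 2026 and 1412 CPM, and 13 and 6 member wells had at least 1000 CPM of it.

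Other cell types were almost absent from the members, and endothelial and Schwann cell genes were low in the other wells too. The summed endothelial list was at 0.204 and 0.0732 CPM in members against 6.57 and 5.90 CPM in others. In members 4 and 5 of its 6 genes were at 0. The Schwann cell list was at 0.204 and 3.30 CPM in members against 13.4 and 3.42 CPM in others. Blood genes summed to 23.1 and 34.9 CPM in members and 32.8 and 18.8 CPM in others, and adipocyte genes to 6.84 and 0.439 against 263 and 111 CPM. Of the mural cell genes, Acta2 and Rgs5 were at most 3.37 CPM in members, whereas Cspg4, a membrane proteoglycan that chondrocytes also make, had 111 and 78.2 CPM against 44.6 and 25.0 CPM. Of 3 mural genes at 50 CPM, Cspg4 was 2-fold higher and the other two were lower. Skeletal muscle genes summed to 44.2 and 23.0 CPM in members against 17.3 and 20.7 CPM, nearly all of it Tnnt3, a fast troponin.

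Ctsk itself, whose promoter drives the Cre, was low in the members. It had 74.5 and 78.4 CPM against 303 and 209 CPM in other wells, and reached 100 CPM in 17.7% and 20.8% of member wells against 48.1% and 37.6% of others. The difference was -1.61 ± 0.22 on the log2 scale (adjusted p = 0.189, edgeR quasi-likelihood). In the wells of 1000 to 4000 CPM of the rule genes it was 262 and 124 CPM. Ctsk was the 1 osteoclast gene at 50 CPM, and the osteoclast genes Mmp9 and Acp5 had 3.37 and 1.39 CPM, and 8.37 and 5.78 CPM, in members.

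Of 15 matrix degradation genes at 50 CPM, 9 were 2-fold lower and 0 higher, against 9.49% and 4.69% of all genes. Adamts5, an aggrecan-cutting protease, had 5.31 and 4.98 CPM in members against 61.2 and 54.5 CPM, and Mmp14, a membrane collagenase, 30.4 and 51.5 CPM against 213 and 138 CPM. Mmp2 had the smallest p of the list and did not reach 2-fold in animal 2, at 423 and 290 CPM against 879 and 555 CPM. Of 8 insulin-like growth factor (IGF) genes at 50 CPM, 5 were 2-fold lower and 0 higher, among them the ligand Igf1 (20.1 and 13.3 CPM against 457 and 472 CPM) and the binding proteins Igfbp4 and Igfbp5.

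Of 19 immediate-early and heat shock genes at 50 CPM, 4 were 2-fold higher (Dnajb1, Zfp36, Btg2 and Hspa1a) and 0 lower, and DESeq2 called 13 higher and 1 lower. Over all genes, 4.69% were 2-fold higher and 9.49% lower, and DESeq2 called 3.01% higher and 5.76% lower. The sum of the 21 genes had a median of 12553 and 15096 CPM in member wells against 3741 and 7025 CPM in others. Pooled over wells it was 12426 and 16445 CPM in members, 6854 and 8655 CPM in others, and 11773 and 10959 CPM in the articular-surface wells described below, a subset of the others. Fos had 3190 and 4103 CPM against 1826 and 2314 CPM, and Dnajb1, a heat shock cochaperone, 647 and 638 CPM against 105 and 122 CPM. Dusp1, an early gene of the same list, had 228 and 354 CPM against 457 and 518 CPM. Mitochondrial shares and depth, given above, were close between the classes, and the part of cell handling in these levels was not tested.

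In metabolism, 3 of 11 glycolysis and hypoxia genes at 50 CPM were 2-fold higher and 0 lower, against 4.69% and 9.49% of all genes. Pooled, the 24 genes of this list summed to 4023 and 4504 CPM in members and 2672 and 3280 CPM in others. In the articular-surface wells they summed to 3823 and 4291 CPM, and 0 of 11 genes differed 2-fold between members and those wells. Eno1 had 202 and 262 CPM in members against 74.9 and 113 CPM in all other wells. Bnip3, a hypoxia target of mitochondrial turnover, had 253 and 224 CPM against 85.4 and 98.9 CPM. Hmgcs1 and Insig1 were the 2 of 3 cholesterol genes that were 2-fold higher. Of 19 secretory pathway genes at 50 CPM, 0 were 2-fold different in either direction, and no cell cycle gene of 5 was. Ssr4, a subunit of the translocon complex of the endoplasmic reticulum, had 2419.8 and 2452 CPM against 1535 and 1731 CPM.

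Among signalling genes the counts were small. Over all genes at 50 CPM, 4.69% were 2-fold higher and 9.49% lower, and 1 or 2 genes of a short list set no list apart. Id1, a target of BMP signalling, was the 1 gene of 13 BMP and TGF-beta genes at 50 CPM that was 2-fold higher, at 658 and 985 CPM against 151 and 235 CPM, with 1 lower. Frzb, a secreted Wnt antagonist of cartilage, was the 1 of 6 Wnt genes, at 134 and 133 CPM against 25.0 and 34.1 CPM, with 2 lower. The lower ones were Sfrp4 (0.714 and 0.146 CPM against 103 and 68.9 CPM) and Dkk3, both secreted Wnt modulators. Lef1, a transcription factor of the Wnt pathway, had 67.3 and 40.7 CPM against 7.42 and 6.92 CPM. Fgfr3, the receptor that restrains chondrocyte growth, and Fgfrl1 were the 2 of 5 FGF genes, with 0 lower. Ptch1, the receptor and target of hedgehog, had 130 and 88.5 CPM against 73.2 and 52.8 CPM and did not reach 2-fold in both. Of 3 hedgehog and parathyroid hormone-related genes at 50 CPM, 0 were 2-fold higher and 1, Gas1, was lower. Among matrix and calcification genes, Mgp, an inhibitor of calcification, had 9688 and 11776 CPM against 4681 and 4856 CPM. With Omd it was 1 of 2 calcification and bone matrix genes of 6 that were 2-fold higher, with 1 lower. Of 13 surface antigens at 50 CPM, 3 were 2-fold higher and 5 lower. Cd24a had 369.9 and 301.3 CPM against 109.6 and 104 CPM, and Itgb1, the beta 1 integrin, 146 and 91.8 CPM against 373 and 345 CPM.

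The zones of the growth plate were then sought within the members, by genes given whatever their values. Of 3 genes at 50 CPM in each list, 0 resting zone genes were 2-fold higher and 1 lower, 1 prehypertrophic gene (Fgfr3) was higher and 1 (Alpl) lower, and 0 hypertrophic genes were higher and 3 lower. These counts set members against all other wells, and Alpl, Ibsp and Spp1 also stand in the osteoblast list. They therefore do not place the members in a zone. Ihh, the hedgehog ligand of prehypertrophic cells, gave a count in 2 of 79 and 1 of 101 wells, the highest at 172 and 227 CPM, and in 0% and 1.7% of other wells. Col10a1, the collagen of hypertrophic cells, gave a count in 2 and 1 wells, and 1 well, in animal 1, reached 1926 CPM. Panx3 reached 100 CPM in 4 and 2 wells and Mmp13 in 1 and 0. Ibsp reached 100 CPM in 5.1% and 3.0% of member wells and 7.5% and 7.7% of others.

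Pth1r, the receptor of parathyroid hormone-related protein (Pthlh), reached 100 CPM in 13.9% and 5.9% of member wells and 8.4% and 4.7% of others. Cd200 reached it in 41.8% and 24.8% against 21.8% and 19.7%. Of the resting zone genes, Pthlh reached 100 CPM in 7.6% and 10.9% of member wells against 5.0% and 7.3% of others, and Sfrp5, a Wnt antagonist, in 8.9% and 11.9% against 1.3% and 2.6%. Gas1 was lower in members (32.6 and 73.6 CPM against 168 and 186 CPM). Apoe and Spon1 each reached 100 CPM in at most 12 member wells of an animal, and Clu in 26 and 32.

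Low counts of cartilage genes occurred in wells of every kind: Col2a1 gave a count in 98.3% and 100% of the other wells, with a median of 88.5 and 87.0 CPM. A level of 100 or 1000 CPM, chosen after the values were seen, is therefore used here in place of any count.

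Cycling cells were few. The summed 20 cell cycle genes reached 1000 CPM in 7 and 3 member wells, against 19 of 239 and 23 of 234 others. The differences between members and others were not called for any of these genes by edgeR (smallest adjusted p = 0.412), with 0 at an unadjusted p below 0.05 and 0 by DESeq2.

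**Figure D4:**
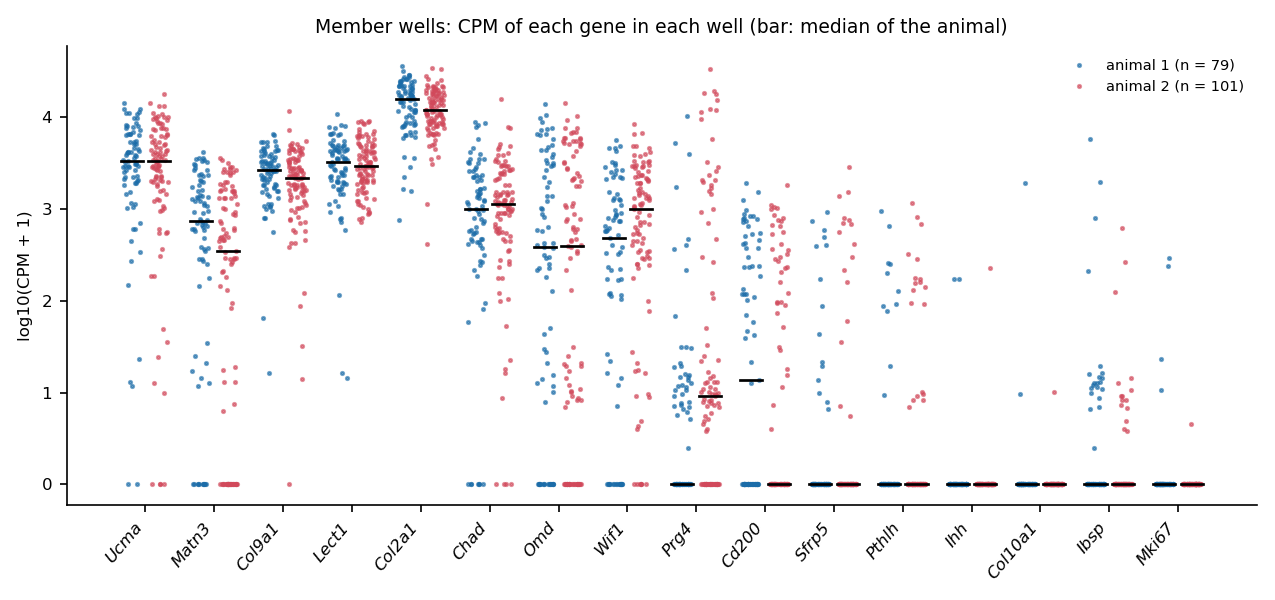
CPM of 16 genes in every member well, as log10(CPM + 1) (vertical axis), with animal 1 (79 wells) and animal 2 (101 wells) side by side and the median of each as a bar. Col2a1 was high in all wells, Omd spread from 0 to 14063 and 14415 CPM and Wif1 from 0 to 5642 and 8403 CPM, Prg4 reached 10231 and 33564 CPM in few wells, and Ihh and Col10a1 were at 0 in nearly all.

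Osteomodulin (Omd), a leucine-rich proteoglycan, varied most. It had a median of 387 and 397 CPM, but 30 of 79 and 38 of 101 member wells had at least 1000 CPM (38.0%, 27.3% to 49.6%, and 37.6%, 28.2% to 47.8%). The highest wells had 14063 and 14415 CPM. In other kept wells 24 of 239 and 19 of 234 reached 1000 CPM. Its rank correlation with the summed rule genes was -0.13 and 0.12, so Omd did not order the wells as the rule genes did.

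Wells high in Omd also had more Chad, a collagen-binding leucine-rich protein (pooled 2894 and 2642 CPM against 1062 and 1231 CPM in members under 1000 CPM of Omd), more Lox, the collagen crosslinking oxidase (275 and 180 against 35.5 and 44.1 CPM), and more Cd200 (341 and 291 against 188 and 65.8 CPM). Col2a1 differed less, at 15348 and 14563 against 14125 and 11478 CPM. The Omd-high wells were deeper, with a median of 126339 and 137257 counts against 95432 and 123286, and the part of depth in these values was not tested. The 5 genes with the highest rank correlation to Omd were Chad (0.44 and 0.35), Lox (0.51 and 0.34), Hes1, Cst3 and Cd200 (0.30 and 0.33). Most of them also rose with well depth. The rank correlation with depth was 0.36 and 0.29 for Chad, 0.34 and 0.21 for Lox, and 0.33 and 0.20 for Hes1. It was 0.30 and 0.31 for Cd200, and -0.07 and -0.07 for Cst3.

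Prg4 marked a second subset. It was at least 1000 CPM in 4 of 79 member wells of animal 1 (5.1%, 1.4% to 12.5%) and 22 of 101 of animal 2 (21.8%, 14.2% to 31.1%), while the medians were 0 and 8.1 CPM. Other wells with Prg4 and Cytl1 of at least 1000 CPM together were also the larger share in animal 2 (12.2% of kept wells against 6.29%). With 1 plate per animal, this contrast has no replicate. Against all other wells, 3 of 5 joint-surface genes at 50 CPM were 2-fold lower in members and 0 higher, and Prg4 itself was at 378 and 1348 CPM against 472 and 882 CPM.

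The Prg4-high members stood lower in the rule genes. Their median sum was 6226 and 6133 CPM against 10961 and 11053 CPM in the rest, and pooled Ucma was 1562 and 2544 CPM against 4148 and 4664 CPM. Mia was 1454 and 2350 CPM against 3544 and 3763 CPM. Col2a1 was 14056 and 17352 CPM against 14757 and 11698 CPM. Wif1, a secreted Wnt inhibitor, was 3348 and 3093 CPM against 927 and 914 CPM, and Ctsk 15.2 and 17.7 CPM against 78.3 and 92.3 CPM. The values of animal 1 rest on 4 wells. Median depth was 156682 and 111344 counts in the Prg4-high wells against 102260 and 125167 in the rest, and its part was not tested. Pooled Omd was lower in the Prg4-high wells, at 552 and 1016 CPM, than in the rest, at 2405 and 2259 CPM. Pooled values do not show how often both genes were high in 1 well.

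**Figure D5:**
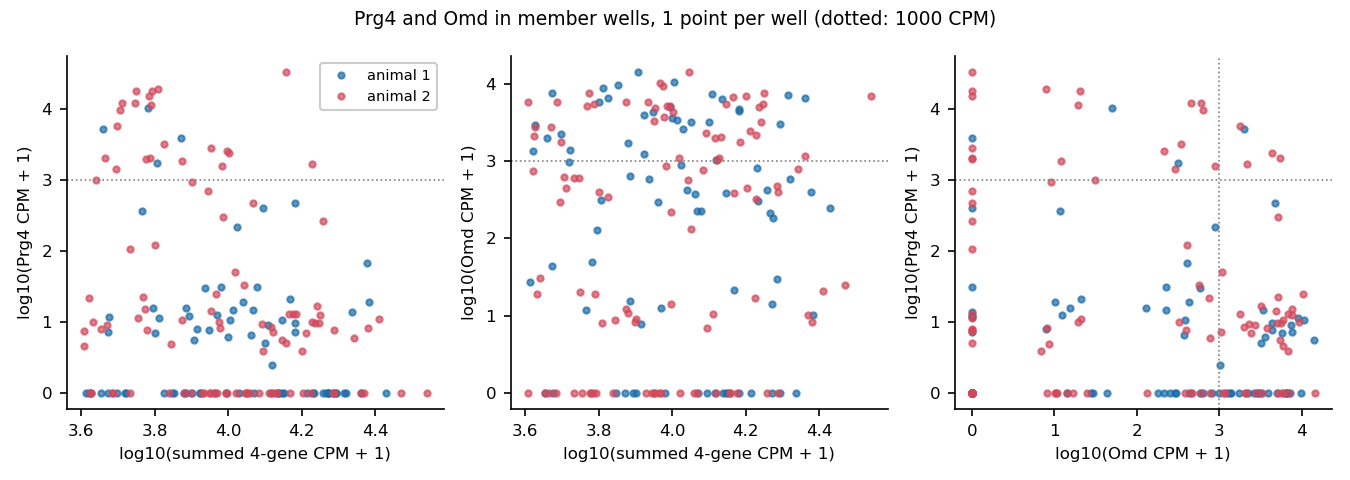
Log10(CPM + 1) of Prg4 (left) and Omd (middle) against the log10 of the summed 4-gene CPM plus 1, and of Prg4 against Omd (right), in member wells, 1 point per well, coloured by animal; dotted lines mark 1000 CPM. Wells at or above 1000 CPM of Prg4 lay mostly at the low end of the summed level, with a median of 6226 CPM in animal 1 and 6133 CPM in animal 2, while Omd-high wells lay along the whole range.

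Wif1 itself was at least 1000 CPM in 24 and 51 member wells, and its rank correlation with the rule sum was -0.29 and -0.44. The genes that followed the rule sum most closely were Col9a3 (0.54 and 0.57), Mia (0.50 and 0.44), Col11a1 (0.48 and 0.40), Smoc2 and Thbs1. Well depth did not (0.07 and 0.06). For single rule genes the closest were Mia for Ucma (0.41 and 0.47), Col9a3 for Col9a1 (0.60 and 0.48), Nid2 for Matn3 (0.36 and 0.37) and the secretory pathway gene Ppib for Lect1 (0.37 and 0.46). With well depth, Matn3 had a rank correlation of 0.25 and 0.19 and Nid2 of 0.32 and 0.24. Mia had 0.07 and -0.01, Col9a3 0.02 and 0.05, and Ppib -0.01 and -0.11. The part of depth was not tested. After Omd, the most variable genes for their level were A230065H16Rik, 3110079O15Rik, Col1a1, Zfp36, Dcn, Ucma, Wif1, Matn3, Hspa1a, Nupr1, Id1, S100a1, H19 and Lgals1. Zfp36, Hspa1a and Id1 are early-response or signalling targets, with 27 and 45, 21 and 21, and 20 and 29 wells at 1000 CPM or more.

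Finally the members were compared with articular-surface wells, the 20 and 41 other kept wells in which Prg4 and Cytl1, genes of the joint surface, summed to at least 1000 CPM. These wells carried cartilage matrix genes at 11015 and 10517 CPM. Their Col2a1 level, 3169.7 and 3615 CPM, was below that of the wells at 1000 to 4000 CPM of the rule genes. They also held the tendon list genes Tnmd, at 2406 and 2547 CPM, and Kera (keratocan), at 1552 and 433 CPM, in pooled counts. Tnmd reached 1000 CPM in 5 of 20 and 8 of 41 of these wells and Kera in 5 and 5, so few wells carried these levels. Thbs4, which stands in both the tendon and the joint-surface list, was at 1207 and 556 CPM. Prg4 and Cytl1 chose this class and were left out of the test with the 4 rule genes. The class held only wells under 4000 CPM of the rule genes. The 4 and 22 member wells with at least 1000 CPM of Prg4 stayed among the members. The comparison therefore does not set all Prg4-high wells against wells without Prg4.

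Of 14087 genes, 0 were higher (0%) and 5 lower (0.0355%) in members by edgeR's quasi-likelihood test, with 1698 at an unadjusted p below 0.05, and DESeq2 called 407 higher (2.89%) and 360 lower (2.56%). The median log2 difference of all genes was 0.30, and 0.19 with DESeq2 size factors. The 5 genes that fell were Tppp3, Kera, Igfbp6, Lgals1 and Tmsb4x, each with an adjusted p of 0.0296 (edgeR quasi-likelihood). Kera and Igfbp6 each had a median of 0 CPM in the articular-surface wells of both animals. Each reached 100 CPM in 5 of 20 and 7 of 41 of them, so a minority of that class carried these 2 genes. Lgals1 (galectin 1) had 1592 and 1376 CPM in members and 5846 and 4879 CPM in articular-surface wells, a log2 difference of -1.69 ± 0.07. Tmsb4x, the actin-binding thymosin beta 4, had 261 and 314 CPM against 1988 and 1965 CPM. Tppp3, a tubulin-binding protein of tendon sheath cells, had 6.43 and 9.96 CPM against 405 and 474 CPM. The direction was the same in each animal. With members taken from 2000 CPM of the rule genes, only Tmsb4x of the 5 still passed; Kera and Igfbp6 did not pass without the animal block, Tmsb4x with members from 8000 CPM, and Lgals1 without the 5% of wells with the most genes.

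By size, 115 of 2501 genes at 50 CPM were 2-fold higher in members (4.6%) and 197 lower (7.88%). Of the cartilage matrix list, 13 of 18 were 2-fold higher and 0 lower. Members and articular-surface wells were divided by the summed level of the rule genes, which are cartilage genes themselves. Here too the level of other cartilage genes describes the choice of wells and supports nothing. The 8 largest higher differences were Lmcd1, Ptch1, Ninj2, Pantr1, Cdkn2c, Hist1h1c, Smoc2 and Asrgl1. Lmcd1, a LIM domain cofactor, had 68.4 and 146 CPM in members, and 0 and 0.202 CPM in articular-surface wells. Ptch1 had 130 and 88.5 CPM against 1.61 and 1.21 CPM. The 8 largest lower differences were Fgl2, Kera, Egfl6, Aldh1a3, Rgs5, Crabp1, Thbs4 and Spink2, and none of them exceeded 13.1 CPM in members.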

How the data were processed

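Single reporter-positive femur cells of 2 animals were profiled, 1 cell per plate well. The authors deposited raw counts, whole numbers, for 24866 genes in 658 wells, and per the submitters' processing notes the build was mm10 and CASAVA was used. No source used here names the aligner, the counting step, its use of strand or any collapsing of duplicates, so a count was not read as 1 molecule. Kept wells held 9767 to 675621 counts. CPM are counts divided by the total of the well, or of the pooled wells of a class and animal, times 1000000.

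Counts were summed per animal and class and fitted with edgeR 4.0.16 (TMM, filterByExpr, quasi-likelihood, Benjamini-Hochberg, threshold 0.05) in R 4.3.3, with DESeq2 1.42.0 as the alternative, after a test on simulated counts. Both classes of an animal come from that animal, which is why it was a block. The standard error is the log2 difference over the root of the F statistic. Fits left 1 residual degree of freedom against the other wells and 2 against the articular-surface wells, so the spread is poorly known. The 31 gene lists had 388 genes in the table. Per-well work used Python 3.11.15 with pandas 2.3.3 and scipy 1.17.1. Rank correlations used genes with a count in at least 20% of member wells of each animal.

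The members, lists and rules were chosen with earlier results of these data known. The plan named the 12 largest differences each way among genes that passed, in both animals, at 50 CPM or more and with no well over 20% of the counts (8 each way against articular-surface wells). Because none passed against the other wells, and too few against the articular-surface wells, the 2-fold size rule took the place of the p. List examples began with those of smallest p, and further list genes were named for their role after their values were seen. The 15 most variable genes and the 5 closest correlates are named.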

Additional observations from a re-analysis of the deposited data

How the results depend on the processing

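Against the other kept wells, the number of genes called higher and lower, 0 and 0 as reported, became 436 and 835 with DESeq2, 6 and 17 with no filter on low counts, 23 and 62 with no replicate block, 2 and 6 with members from 8000 CPM, 298 and 406 with each well thinned to 9000 counts, and 3 and 7 without wells of 100 to 4000 rule CPM, a setting added after the data were seen. It stayed at 0 and 0 with DESeq2 size factors, with members from 2000 CPM and without the 5% of wells with the most genes. Against the articular-surface wells, 0 and 5 became 407 and 360 with DESeq2, 111 and 123 thinned, 3 and 10 with no replicate block, 2 and 6 from 8000 CPM, 0 and 2 from 2000 CPM, 2 and 5 with no filter, and 1 and 4 without the densest wells. The cause was not tested. The share of members became 31.4% and 39.4% from 2000 CPM and 16.7% and 18.5% from 8000 CPM.

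For named and list genes, a value was unchanged if it kept its direction and its side of the threshold. With 1 animal left out, direction alone was judged. Against the other wells, 124 values without replicate 1 and 121 without replicate 2 were unchanged in this sense. With these included, 1117 values against the other wells were unchanged, 237 passed the threshold, and 9 had the opposite sign. On the log2 scale the last were Pth1r from 8000 CPM (-0.50), Vegfa thinned (0.14), Mbp with no replicate block (-1.62), Ccnb1 from 2000 CPM (0.30), and genes of opposite sign in the 2 animals, whose values without replicate 1 and without replicate 2 were -0.96 and 0.11 for Vegfa, 1.89 and -0.38 for Cd68, -3.86 and 0.33 for Hba-a1, 0.20 and -1.83 for S100a9, and 4.94 and -6.81 for Mbp. Leaving out an animal left 1 library per class and so a value with no test. The planned threshold of 4000 CPM for articular-surface wells, and the removal of intermediate wells from that comparison, were not run because a class then had 9 wells in animal 1. With 2 animals, a gene that did not pass was not shown to be equal.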

Other observations

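The 123 genes at least 2-fold higher and the 249 at least 2-fold lower in members also held genes outside the lists, chosen here after their values were seen. Trpv4, a calcium channel that chondrocytes open under load, had 145 and 103 CPM in members and 10.6 and 23.7 CPM in other kept wells. Wwp2, the gene that hosts the cartilage microRNA miR-140, had 806 and 702 CPM against 139 and 217 CPM. S100b and S100a1, calcium-binding proteins, had 215 and 345 CPM against 64.6 and 79.0 CPM, and 691 and 653 CPM against 263 and 273 CPM. None of the 4 passed edgeR's quasi-likelihood test.

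Other S100 genes stood the other way. S100a4 had 25.4 and 23.3 CPM in members against 475 and 731 CPM, and S100a6 554 and 450 CPM against 3792 and 4683 CPM. Vim (vimentin) had 398 and 438 CPM against 2372 and 2268 CPM. The chemokine Cxcl12 had 3.26 and 0.586 CPM against 218 and 223 CPM, and Ifitm3 39.3 and 22.5 CPM against 932 and 1024 CPM.

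In animal 2, 1 member well reached 1000 CPM of the summed fibroblast genes Mfap5, Cd34, Ly6a, Pi16, Dpt and Igfbp6, with a rule sum of 6077 CPM. It held 15340 CPM of Prg4, 3473 CPM of Cytl1 and 17908 CPM of Col2a1 at a depth of 108276 counts. Whether it held more than 1 cell was not tested.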
